A study of Tachysurus vachellii with 12 samples.

Results

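The alpha and beta subunits of hypoxia-inducible factor (HIF) were followed in the liver of juvenile Tachysurus vachellii, a bagrid catfish, at normal oxygen and after 4 h of severe hypoxia. Subunits were taken from a table of assembled liver transcripts in which each row, a component, stands for 1 assembled gene. A component was kept if its gene name was hif1a, Epas1 or arnt, in any letter case and with a final a or b allowed. It was also kept if its annotation opened with hypoxia-inducible factor and named an alpha or a beta subunit. This gave 8 of 34744 components, 6 by name and 2 by annotation alone, of which 5 were alpha and 3 were beta.

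Control fish had been held at 6.8 mg/L dissolved oxygen and were sampled first. The same 3 aquaria were then bubbled with nitrogen down to 0.7 mg/L and kept there for 4 h before the hypoxia fish were sampled, so group and order of sampling cannot be told apart. Each group had 3 libraries, lettered a, b and c, each made from the pooled livers of 5 fish. The mRNA and small RNA libraries carry the same letters. No genetic change and no drug entered the design, and time in a closed, deoxygenated aquarium without recirculation was part of the hypoxia treatment.

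HIF is a heterodimer of an alpha and a beta subunit, both of the bHLH-PAS family. The alpha subunit is made continuously, but in normal oxygen prolyl hydroxylases mark it for ubiquitination by the VHL complex and degradation, and the asparaginyl hydroxylase FIH (gene hif1an) blocks its coactivator contact. Under low oxygen the alpha protein accumulates, joins the beta subunit ARNT, and raises genes of glycolysis, erythropoiesis and vessel growth. HIF-1 alpha (gene HIF1A) and HIF-2 alpha (gene EPAS1) share this control and differ in part of their targets, and in mammals EPAS1 is prominent in vascular endothelium. mRNA levels, which are all that was measured here, do not show the amount of protein.

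Total counts were 32652402 to 35852327 per mRNA library and 4510770 to 7049919 per small RNA library, and levels are given as counts per 1000000 (CPM). Hepatocyte genes were abundant in the mRNA libraries, and 16 markers summed to 78121 to 106403 CPM per library. Complement c3 averaged 23906 ± 8877 CPM in control and 22383 ± 3676 in hypoxia (SD, n = 3). The component named fabp10a, a liver fatty acid binding protein gene widely used as a liver marker in zebrafish, stayed at 0.118 and 0.148 CPM. It was too low to test, and whether it holds the whole gene was not examined. Of 15 hepatocyte markers tested, 1 fell (6.67% against 6.36% of all components), the glucose-6-phosphatase gene G6PC (log2 fold change -1.28, SE 0.23, edgeR adjusted p = 0.015), and none rose. The hepatocyte marker nearest to the threshold among the rest was apoa1, at 22 and 56.4 CPM (log2 fold change 1.35, edgeR adjusted p = 0.077, and 0.034 with the replicate block, which fits the library letters). Its hypoxia libraries were uneven, at 46.8, 95.4 and 26.8 CPM, and without hypoxia b the log2 fold change was 0.73 (edgeR adjusted p = 0.2). The G6PC call was lost without control a, control b or hypoxia b (edgeR adjusted p = 0.066 to 0.073). The median log2 fold change over all 25415 components tested was -0.00.

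Names and annotations of the subunits did not always match. The most abundant component, comp19680_c0, carries the name Epas1 but is annotated as HIF-1 alpha, and comp19733_c0 carries the name HIF1A but is annotated as HIF-2 alpha. The remaining alpha components have names and annotations of the same kind: EPAS1 comp19126_c0 with HIF-2 alpha, and hif1a comp16248_c0 and comp664_c0 with HIF-1 alpha. The beta components were arnt comp17701_c0 and 2 short pieces named arnt2 (comp664564_c0 and comp695858_c0), all annotated as HIF-1 beta. RefSeq lists 6 alpha genes for this species in assembly HZAU_Pvac_v1 (hif1aa, hif1ab, epas1a, epas1b, hif1al and hif1al2) and 2 beta genes (arnt and arnt2), and the components were not matched to them here. Read counts between such related copies could be split by the counting, so the identity and the exact level of each alpha component are uncertain. Each component is therefore given with its ID.

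Per length, the most abundant components were alpha subunits, but HIF1A comp19733_c0 and the short hif1a comp664_c0 lay below arnt comp17701_c0 by group mean. By mean control RPKM (read count scaled to transcript length and library total, the authors' values), Epas1 comp19680_c0 ranked 669 of 34744 components and EPAS1 comp19126_c0 ranked 868. The next were hif1a comp16248_c0 at rank 2668, arnt comp17701_c0 at rank 6197 and HIF1A comp19733_c0 at rank 10132. The order from Epas1 to HIF1A was the same in both groups. Neighbours in it did not overlap between libraries, except arnt (3.5 to 7.6 RPKM) and HIF1A comp19733_c0 (2.15 to 4.21 RPKM) in control. The short hif1a component comp664_c0 (effective length 497 bases) and the arnt2 pieces (287 and 233 bases) lay at or below 2 RPKM in every library.

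**Figure D1:**
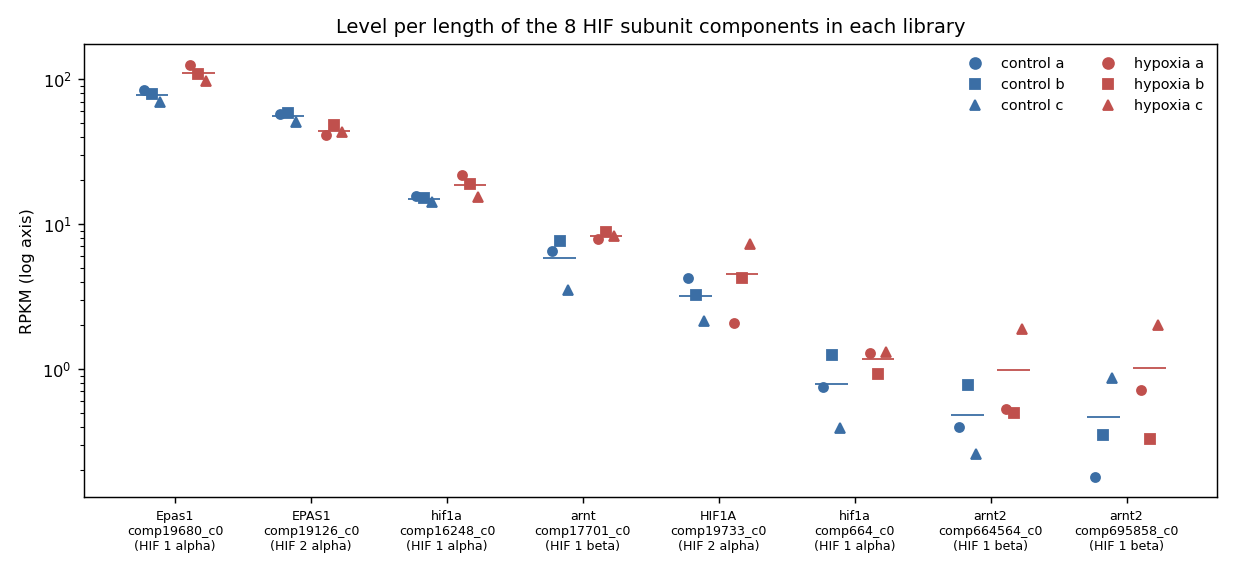
RPKM on a log axis for the 8 HIF subunit components, with 1 point per library (circle, square and triangle for letters a, b and c) and a line at the mean of each group of 3. Epas1 comp19680_c0 is highest, with hypoxia above all controls (97.1 to 126 against 69.7 to 84.8), EPAS1 comp19126_c0 lies below all controls (41.2 to 48.5 against 50.9 to 58.3), and the short components sit at the bottom with wide scatter.

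None of the 6 subunit components with enough counts to test passed the adjusted threshold of 0.05 after 4 h, against 6.36% of all components tested. By direction, 4.56% of all components rose and 1.8% fell. The count of 0 came from edgeR's quasi-likelihood test, and it was also 0 with DESeq2 and with limma-voom; each of the 3 tools had 1 component at an unadjusted p below 0.05. Control and hypoxia libraries did not overlap in CPM for 2 of the 6, 1 of them higher and 1 lower in hypoxia, against 28.3% of all components tested. Neither share stands out from the background. The letters were taken to pair the libraries, and with the replicate block the count of components that changed was 2493 in place of 1617, still without a subunit.

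Epas1 comp19680_c0, the component annotated as HIF-1 alpha, stood at 293, 292 and 267 CPM in the control libraries, in letter order, and at 455, 387 and 337 CPM under hypoxia. Every hypoxia library was above every control library, with the widest step in letter a. The means were 284 ± 14.4 CPM and 393 ± 59.2 CPM (SD, n = 3), a log2 fold change of 0.47 (SE 0.17, 95% interval 0.07 to 0.86, or 1.38-fold with 1.05 to 1.82). The edgeR unadjusted p was 0.025 and the adjusted p was 0.16, so the call was not made. Over 14 alternative analyses the log2 fold change ran from 0.34 to 0.55, and it passed in 1 of them, without both libraries lettered c (0.52, edgeR adjusted p = 0.047).

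EPAS1 comp19126_c0, the component annotated as HIF-2 alpha, differed in the opposite direction. It stood at 206, 225 and 200.4 CPM in control and at 163, 186 and 158 CPM under hypoxia. All hypoxia libraries were below all control libraries, by a narrow margin between hypoxia b and control c. The means were 211 ± 13.1 and 169 ± 15.1 CPM (SD, n = 3), a log2 fold change of -0.32 (SE 0.16, 95% interval -0.68 to 0.04), or 0.802 times the control level. The edgeR adjusted p was 0.29, and over 14 alternatives the log2 fold change stayed between -0.40 and -0.27 without passing.

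hif1a comp16248_c0, the abundant component with both name and annotation of HIF-1 alpha, was nearly constant in control at 58.9, 61.8 and 59.7 CPM. Under hypoxia it was at 87.1, 74 and 58.3 CPM. Letters a and b were above all controls and letter c was just below all of them, so the groups overlapped. On the authors' RPKM they overlapped too, with hypoxia c (15.3) inside the control range (14.1 to 15.5). The means were 60.1 ± 1.5 and 73.2 ± 14.4 CPM (SD, n = 3), with a log2 fold change of 0.28 (SE 0.18, 95% interval -0.13 to 0.70, or 0.914-fold to 1.62-fold; edgeR adjusted p = 0.41). Over 14 alternatives the log2 fold change ran from 0.13, without hypoxia a, to 0.42, without both letter c libraries, and it did not pass in any. The range between libraries was 4.84% of the mean in control and 39.4% in hypoxia.

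HIF1A comp19733_c0, assembled as 8 transcripts and annotated as HIF-2 alpha, varied most among the alpha components that reached 1 CPM. It was at 11.4, 10 and 6.95 CPM in control and at 6.38, 12.8 and 20.8 CPM under hypoxia. The hypoxia libraries held both the lowest and the highest value, and their range was 108% of their mean. The log2 fold change was 0.49 (SE 0.38, 95% interval -0.36 to 1.35; edgeR adjusted p = 0.49), and it turned to -0.16 without both libraries lettered c (edgeR adjusted p = 0.75) and to 0.00 without hypoxia c alone. The summed level of 6 leukocyte markers had its lowest and highest values in the same libraries, 28 CPM in hypoxia a and 44.1 CPM in hypoxia c. So did the summed level of the stellate and fibroblast markers, at 698 CPM in hypoxia a and 1070 CPM in hypoxia c. The largest part of that sum was COL1A1, at 456 CPM in hypoxia a and 765 CPM in hypoxia c. Single markers went both ways. From hypoxia a to hypoxia c, DCN was higher (126 and 195 CPM), and pdgfra (50 and 45.8 CPM) and ACTA2 (9.43 and 7.55 CPM) were lower. Of the leukocyte markers, ptprc and Spi1 had both extremes in these libraries, while Cybb was highest in hypoxia a and lcp1 in control b. Within hypoxia the red cell sum ran in the letter order of HIF1A comp19733_c0 and more widely, at 595, 1519 and 2506 CPM. Its highest value, 2579 CPM, was in control b. The part of any of these sums in the result was not tested. The short hif1a component comp664_c0 had 11, 19 and 6 reads in control and 19, 15 and 19 in hypoxia, and at this depth its log2 fold change of 0.51 had a 95% interval of -0.55 to 1.57 (edgeR adjusted p = 0.57). Leaving out control b moved it to 1.00 and leaving out control c to 0.19.

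The beta subunit arnt comp17701_c0, the partner that alpha subunits need to bind DNA, was at 16.4, 19.7 and 10.1 CPM in control and at 19.6, 22.1 and 19.2 CPM under hypoxia. Hypoxia was higher in each of the 3 letters, but control b lay within the hypoxia range and control c lay apart at the low end. The means were 15.4 ± 4.87 and 20.3 ± 1.56 CPM (SD, n = 3), a log2 fold change of 0.40 (SE 0.24, 95% interval -0.14 to 0.93; edgeR adjusted p = 0.37). Without control c the log2 fold change was 0.16. On the authors' RPKM scale arnt was at 6.48, 7.6 and 3.5 in control and 7.83, 8.85 and 8.3 in hypoxia, where the groups did not overlap, so that separation depends on the scaling. The 2 arnt2 pieces had 1 to 6 reads per library in control and 2 to 14 in hypoxia, and were not tested because of these low counts.

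**Figure D2:**
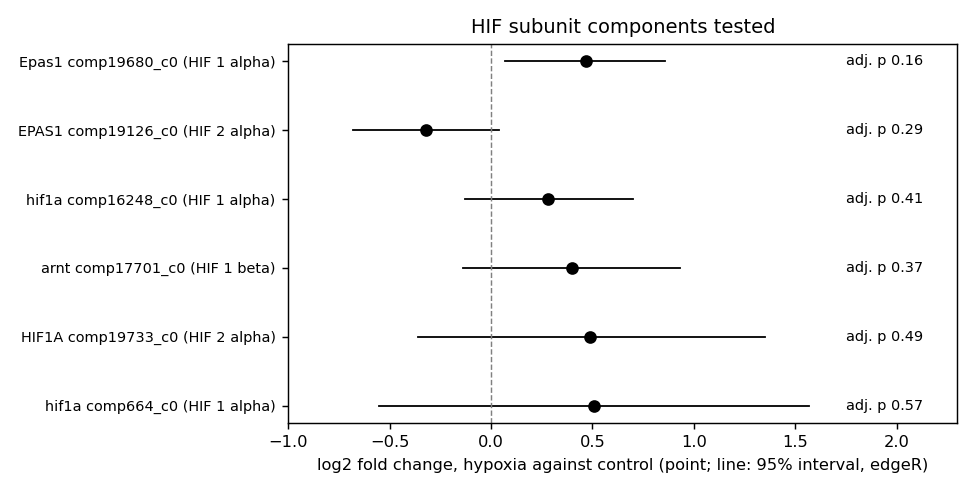
log2 fold change of hypoxia against control for the 6 tested components, with the point at the edgeR estimate and the line spanning its 95% interval; the adjusted p over all components tested is at the right. The interval of Epas1 comp19680_c0 (0.07 to 0.86) lies above 0, the other 5 intervals include 0, and no adjusted p is below 0.16.

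Adding components changed the values with the grouping. Summed by gene name, hif1a had a log2 fold change of 0.31 (edgeR adjusted p = 0.28) and Epas1 one of 0.18 (edgeR adjusted p = 0.57). Summed by annotation, an alternative chosen after the values were seen, HIF-1 alpha had 0.44 (edgeR adjusted p = 0.19), HIF-2 alpha -0.27 (edgeR adjusted p = 0.36) and HIF-1 beta 0.41 (edgeR adjusted p = 0.35). The name Epas1 thus joins 1 component that was higher in hypoxia with 1 that was lower, while the annotations keep them apart.

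The makeup of the alpha mRNA pool was described from RPKM. The summed alpha level was 163, 156 and 137 RPKM in control and 192, 181 and 164 RPKM under hypoxia, with the lowest hypoxia library just above the highest control. That margin is on the authors' RPKM and, like the separation of arnt, depends on the scaling. Epas1 comp19680_c0 made up 52.1%, 50.2% and 50.8% of that sum in control and 65.5%, 60% and 59.3% in hypoxia. EPAS1 comp19126_c0 made up 35.4%, 37.3% and 37.1% in control and 21.4%, 26.8% and 26.2% in hypoxia. These shares were tight in control, and each hypoxia library lay outside the control range for both components. Shares of a common sum are bound to each other, so a higher share of Epas1 comp19680_c0 by itself lowers the rest. No test was run on the shares. By contrast, hif1a comp16248_c0 held 9.5% to 10.3% in control and 9.31% to 11.4% in hypoxia, which overlap. All components annotated as HIF-1 alpha together made up 61.3% ± 0.724 of the alpha sum in control and 72.6% ± 4.33 in hypoxia (SD, n = 3).

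**Figure D3:**
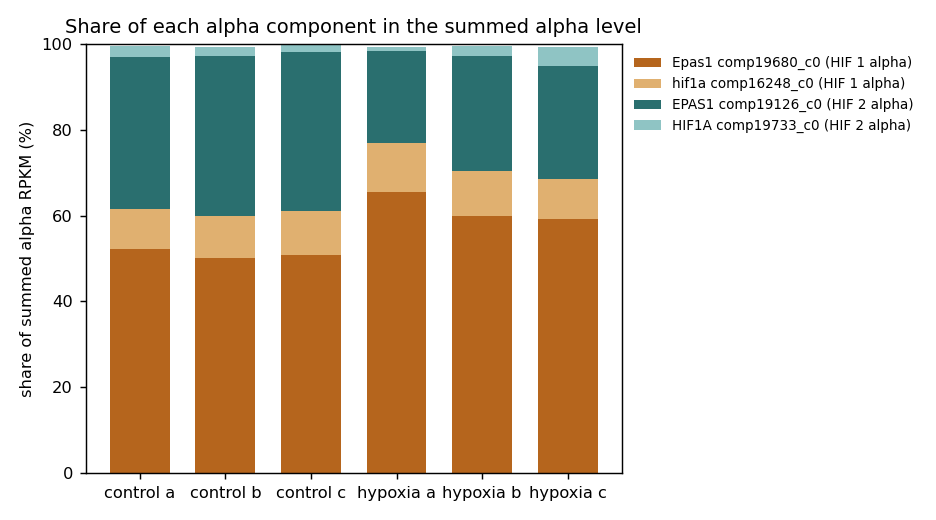
Share of the summed alpha RPKM (percent) held by each of the 4 larger alpha components in every library; the gap at the top is the short component comp664_c0. The brown part of the bar, Epas1 comp19680_c0, covers 50.2% to 52.1% in control and 59.3% to 65.5% in hypoxia, and the dark green part, EPAS1 comp19126_c0, covers 35.4% to 37.3% and 21.4% to 26.8%.

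Ratios within a library need no scaling between libraries, and 3 pairs were compared with a two-sided exact permutation test over the 6 libraries, whose smallest possible p is 0.1. Per kilobase, Epas1 comp19680_c0 was 5.47, 5.2 and 4.93 times hif1a comp16248_c0 in control and 5.74, 5.75 and 6.35 times in hypoxia. The groups did not overlap; the log2 ratio was 2.38 ± 0.08 in control and 2.57 ± 0.08 in hypoxia (SD, n = 3), a difference of 0.19 (exact permutation p = 0.1, adjusted over the pairs 0.3), which does not pass. With components summed by name the difference turned to -0.14. The ratio of hif1a to arnt was 2.33, 2.04 and 3.83 in control and 2.88, 2.17 and 1.97 in hypoxia, with control c the highest and the groups overlapping (log2 difference -0.19, exact permutation p = 0.6, adjusted 0.9). It turned to 0.09 without control c and to 0.20 without both letter c libraries. The ratio of Epas1 to arnt was 12.7, 10.6 and 18.9 in control and 16.5, 12.5 and 12.5 in hypoxia (log2 difference 0.01, exact permutation p = 1, adjusted 1), and again the highest value was control c. Without control c this difference was 0.24, and without both letter c libraries 0.31.

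The pair of large components that differed in opposite directions was singled out after the values were seen, so its ratio is a description with no test. Per kilobase, Epas1 comp19680_c0 was 1.5, 1.37 and 1.41 times EPAS1 comp19126_c0 in control and 2.94, 2.19 and 2.25 times under hypoxia. The log2 ratio was 0.51 ± 0.07 in control and 1.29 ± 0.24 in hypoxia (SD, n = 3), a difference of 0.78, and the highest control ratio was well under the lowest hypoxia ratio. Summed alpha RPKM was 25.1, 20.6 and 39.2 times that of arnt comp17701_c0 in control and 24.6, 20.5 and 19.7 times in hypoxia. The sum takes in all alpha components, and the arnt2 pieces are left out of the beta side. Summed alpha mRNA thus exceeded arnt mRNA in every library, and control c, the library with least arnt, stood apart.

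In bulk liver, fewer cells of a type and less RNA per cell cannot be told apart. Markers of endothelium, a cell type in which EPAS1 is prominent in mammals, were higher in hypoxia as a sum: 12 markers added to 249 to 305 CPM in control and 338 to 370.2 CPM in hypoxia, with no overlap. Of 10 tested, 1 rose and none fell, or 10% against 6.36% of all components, with a median log2 fold change of 0.13 beside -0.00 overall. The 1 that rose was FLT1, a VEGF receptor gene that is itself a HIF target in mammals (14.4 ± 3.11 to 40.7 ± 5.91 CPM, log2 fold change 1.50, SE 0.21, edgeR adjusted p = 0.0049). Tie1, an endothelial receptor gene, was at 20.4 and 13.4 CPM (log2 fold change -0.61, edgeR adjusted p = 0.13, and 0.042 with the replicate block). The largest part of the sum was kdrl, another VEGF receptor gene, at 108 ± 11.2 and 146 ± 12.2 CPM (0.43, edgeR adjusted p = 0.17). Without kdrl and FLT1 the sum of the other markers overlapped between groups. The markers did not go one way: the transcription factor genes FLI1 (31.2 CPM in control, log2 fold change -0.36) and Erg (2.49 CPM, -0.25) had, like Tie1, every hypoxia library below every control library, without passing. The sinusoidal endothelium markers STAB2 and LYVE1 were too low to test, while STAB1 was at 43.2 and 55.4 CPM (0.36, edgeR adjusted p = 0.22). STAB1 and VWF (24.2 and 36.8 CPM, 0.61, edgeR adjusted p = 0.2) had, like FLT1 and kdrl, every hypoxia library above every control library. The sum moved with Epas1 comp19680_c0 and opposite to EPAS1 comp19126_c0, and its part in either result was not tested.

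The other cell type lists overlapped between groups as sums. Red cell markers summed to 1267 to 2579 CPM in control and 595 to 2506 CPM in hypoxia, and 0 of 7 passed in edgeR, none of them at an unadjusted p below 0.05, nor did any pass in DESeq2 or limma-voom, though 3 fell in edgeR without both letter c libraries. The 2 nearest to passing were RHAG, which encodes an ammonium transporter of the red cell membrane (log2 fold change -0.43, edgeR adjusted p = 0.6), and the alpha globin gene hba (-0.35, edgeR adjusted p = 0.71). Exocrine pancreas markers summed to 96.4 to 5353 CPM in control and 1944 to 7823 CPM in hypoxia, and 0 of 9 passed in edgeR, DESeq2 or limma-voom, none at an unadjusted p below 0.05. The digestive enzyme genes CEL (log2 fold change 1.01, edgeR adjusted p = 0.67) and Prss1 (0.85, edgeR adjusted p = 0.69) came nearest. Hypoxia a, which had the highest Epas1 and hif1a, had the highest pancreas sum and the lowest red cell sum, and control c, which had the lowest arnt, had the lowest pancreas sum; their part in these values was not tested. Leukocyte markers summed to 33.3 to 42.1 CPM and 28 to 44.1 CPM, and 0 of 6 passed in edgeR, DESeq2 or limma-voom, none at an unadjusted p below 0.05, with ptprc (CD45) at a log2 fold change of 0.28 and the phagocyte oxidase gene Cybb at 0.22. Of 11 stellate and fibroblast markers tested, 1 fell (9.09% against 6.36% of all components), the transcription factor gene HAND2 (log2 fold change -1.42, edgeR adjusted p = 0.026), a call lost on leaving out letter a or letter b of either group (adjusted p = 0.071 to 0.098 in edgeR). The intermediate filament gene des came next (0.72, edgeR adjusted p = 0.05). The list leaned upward, with a median log2 fold change of 0.47 beside -0.00 for all components. Like des, pdgfra (0.47), ACTA2 (0.56) and pdgfrb (0.63) had every hypoxia library above every control library, without passing. HAND2 was the only one with every hypoxia library below every control library. With the replicate block 3 of the list rose and 1 fell. Among these rises, the collagen genes COL3A1 and COL1A2 were at 18.4 and 22.1 CPM in hypoxia b. In every other library both were at or below 1.96 CPM. The list summed to 775 to 981 CPM in control and 698 to 1070 CPM in hypoxia. No marker matched to a component was at 0 in every library. Components were assembled from liver reads and unmatched markers were not counted, so this does not show whether a marker was absent.

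Several genes that act on alpha subunits after translation rose. Of 19 genes of hydroxylation and degradation tested, 6 rose and none fell, or 31.6% against 6.36% of all components, while the median log2 fold change of the list was -0.02 beside -0.00 overall. EGLN3, a prolyl hydroxylase of the alpha subunit, was at 4.61, 7.27 and 2.99 CPM in control and at 133, 132 and 133 CPM in hypoxia. The groups were far apart, with a log2 fold change of 4.74 (SE 0.32, edgeR adjusted p = 0.00012). EGLN2, which encodes another prolyl hydroxylase, averaged 4.38 ± 1.32 CPM in control and rose to 34.2 ± 3.29 CPM, a log2 fold change of 2.96 (SE 0.23, edgeR adjusted p = 0.00026). The third, EGLN1, known in mammals as the main oxygen sensor of this family, was at 10, 10.5 and 6.42 CPM in control and 12.8, 10.2 and 10.1 CPM in hypoxia, with overlapping groups (0.29, edgeR adjusted p = 0.49). EGLN1, EGLN2 and EGLN3 carry the same annotation, so which prolyl hydroxylase each component holds rests on its name. P4htm, annotated as a HIF prolyl 4-hydroxylase, was lower in hypoxia at 1.36 and 0.67 CPM (-1.01, edgeR adjusted p = 0.095). Like siah1 (-0.49), OS9 (-0.40) and GNB2L1 (-0.17), it had every hypoxia library below every control library, without passing.

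The component with the name of the asparaginyl hydroxylase gene, hif1an, is annotated as aspartate beta-hydroxylase, so its identity rests on the name. It stood at 8.98, 9.7 and 8.85 CPM in control and at 75.7, 71.9 and 77.4 CPM in hypoxia. Its spread within either group was small beside the log2 fold change of 3.03 (SE 0.16, edgeR adjusted p = 5.4e-05). Vhl, whose product recognises the hydroxylated alpha subunit, averaged 5.06 ± 1.19 CPM in control and rose to 13.2 ± 1.32 CPM (1.38, edgeR adjusted p = 0.0068; 1.22 and 0.052 without control a). wsb1, the gene of a ubiquitin ligase adaptor that targets VHL in human cells, rose from 18.3 ± 1.78 to 179 ± 54.4 CPM (3.29, edgeR adjusted p = 0.00026). HSP90AA1, a chaperone gene, rose from 14.3 ± 3.87 to 35.8 ± 7.88 CPM (1.33, edgeR adjusted p = 0.015). Its adjusted p was 0.085 on leaving out control b and 0.056 on leaving out hypoxia a. The far more abundant hsp90ab1, which has the same annotation, was at 2794 ± 134 and 2480 ± 493 CPM, with overlapping groups (-0.17, edgeR adjusted p = 0.64). The elongin, cullin and RBX1 genes of the VHL ligase did not pass, with CUL2 at 14.8 and 14.3 CPM and RBX1 at 34.2 and 33.9 CPM.

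Relatives of the subunits were mostly not called. Of 12 genes on the list of bHLH-PAS proteins and their close partners, 2 rose and none fell, or 16.7% against 6.36% of all components, with a median log2 fold change of 0.21 beside -0.00 overall. Both that rose were cryptochromes, which are clock repressors that bind bHLH-PAS proteins and carry no such domain themselves. Hypoxia fish were sampled after control fish, so for the clock genes on this list time of sampling and hypoxia cannot be told apart. CRY2 rose from 14.4 ± 3.28 to 39.2 ± 9.15 CPM (1.44, edgeR adjusted p = 0.0095, and 0.058 without control a), and CRY1 from 16 ± 0.486 to 27 ± 2.46 CPM (0.75, edgeR adjusted p = 0.021). The CRY1 call was lost on leaving out letter a or letter b of either group (adjusted p = 0.08 to 0.13 in edgeR). Among true family members, the arnt-like clock gene ARNTL was at 20.5 and 22.3 CPM, and Clock at 10.1 and 9.94 CPM. NPAS2, a relative of Clock, was at 1.63, 2.73 and 2.06 CPM in control and 0.635, 0.746 and 1.42 CPM in hypoxia, with no overlap (log2 fold change -1.20, edgeR adjusted p = 0.091, and 0.0482 with the replicate block; it passed in 4 of 14 alternatives). The clock repressor gene PER3 was at 22.8, 25.7 and 25 CPM and 28.3, 35.8 and 47.3 CPM, also with no overlap (0.60, edgeR adjusted p = 0.12). AHR, the dioxin receptor gene whose product also pairs with ARNT, was at 174, 178 and 68.8 CPM in control and 102, 90.1 and 49.9 CPM in hypoxia, where the letter c library was lowest in both groups (log2 fold change -0.79, edgeR adjusted p = 0.26, and 0.0268 with the replicate block). The coactivator gene ncoa3, also on this list, was higher in hypoxia at 44.7 ± 17.5 and 88.3 ± 35.5 CPM, with overlapping groups. Its log2 fold change was 0.98 (edgeR adjusted p = 0.17, and 0.00747 with the replicate block), and it passed in 3 of 14 alternatives. Counts for this list move with the tool: DESeq2 called 1 fall and the replicate block called 3 rises and 2 falls.

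Among 25 coactivators and modulators tested, 1 rose and none fell, or 4%, below the 6.36% of all components called, with a median log2 fold change of -0.03 beside -0.00 overall. It was Hdac4, a class IIa histone deacetylase gene, which rose from 8.42 ± 1.24 to 40.5 ± 3.32 CPM (2.27, edgeR adjusted p = 0.00025). MAX, the dimer partner of MYC, was next at 13 ± 1.36 and 22.9 ± 5.78 CPM (0.82, edgeR adjusted p = 0.055, and 0.032 with the replicate block). DESeq2 called 2 rises and 1 fall on this list, and the replicate block 4 rises. The coactivator genes CREBBP (95.7 and 118 CPM) and Ep300 (3.73 and 3.65 CPM), whose products bind the alpha subunit, did not pass.

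Genes known as HIF targets rose in large number. Of 40 tested, 21 rose and none fell (1 fell in DESeq2 and with the replicate block), or 52.5% against 4.56% of all components that rose, and the list's median log2 fold change was 1.2 beside -0.00 overall. The lactate exporter gene SLC16A3 was at 0.175, 0.273 and 0.187 CPM in control and 5.56, 5.34 and 6.16 CPM in hypoxia (log2 fold change 4.73, SE 0.28, edgeR adjusted p = 6.1e-05). P4HA1, whose product hydroxylates collagen, averaged 1.24 ± 0.292 CPM in control and rose to 17.6 ± 2.25 CPM (3.82, edgeR adjusted p = 7.3e-05). ldha, for lactate dehydrogenase, rose from 8.14 ± 1.11 to 55.3 ± 3.46 CPM (2.77, edgeR adjusted p = 8.6e-05).

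The erythropoietin gene epo, a HIF-2 target in mammalian liver, rose from 4.05 ± 1.05 to 44.7 ± 8.66 CPM (3.46, edgeR adjusted p = 0.00021), and ndrg1 from 14.3 ± 2.41 to 181 ± 59.5 CPM (3.66, edgeR adjusted p = 0.00022). EGLN3 stands on this list too. Of the targets that did not pass, ADM, the adrenomedullin gene, was lower in every hypoxia library (30.9, 31.4 and 40.6 CPM against 19.1, 22 and 25.1 CPM; log2 fold change -0.63, edgeR adjusted p = 0.076, and 0.0299 with the replicate block), and PDK1 was at 6.74 and 4.88 CPM. Both were chosen after their values were seen.

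**Figure D4:**
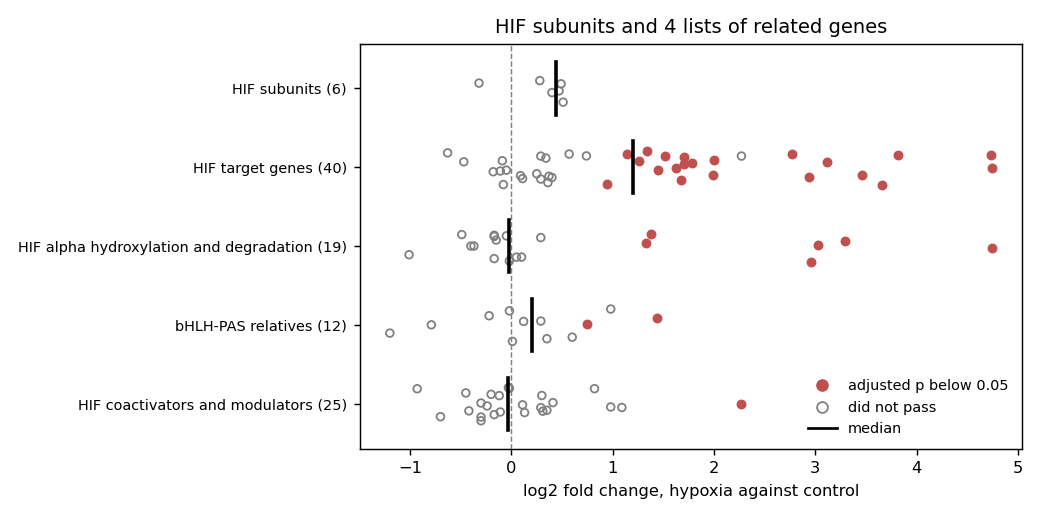
log2 fold changes (hypoxia against control) of the 6 tested HIF subunit components and of 4 gene lists, with 1 point per gene, filled where the edgeR adjusted p is below 0.05, and a bar at each median; vertical scatter within a row has no meaning. All subunit points are open and lie between -0.32 and 0.51, 21 of 40 target genes are filled with a median of 1.2, and the hydroxylation list divides into 6 filled points from 1.33 to 4.74 and 13 open ones from -1.01 to 0.29.

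Components whose pattern over the 6 mRNA libraries was nearest to that of a subunit were found by the root mean square (RMS) difference of log2 CPM centred on each component's mean, among 5167 named components that reached 10 CPM in a group mean. Nearest to hif1a comp16248_c0 were ZNF207 (RMS 0.03), DAAM1 (0.05) and PPIP5K2 (0.05), against a median of 0.307. DAAM1, for example, was at 121, 135 and 126 CPM in control and 192, 167 and 119 CPM in hypoxia, which repeats the high letter a and the control-like letter c of hif1a. Nearest to Epas1 comp19680_c0 were Chd9 (0.05), MYH11 (0.05) and LARP4 (0.06), against a median of 0.351. Chd9, a chromatin remodeller gene, was at 145, 152 and 134 CPM in control and 227, 210.2 and 179.8 CPM in hypoxia, with no overlap and hypoxia a highest.

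Nearest to arnt comp17701_c0 were gse1 (0.07), the VE-cadherin gene CDH5 (0.07) and the basement membrane collagen gene COL4A1 (0.08), against a median of 0.426. CDH5 was at 16.5, 18.3 and 9.09 CPM in control and 17.8, 18.6 and 17.5 CPM in hypoxia, and COL4A1 at 26.3, 28.7 and 16.1 CPM and 29.7, 30.7 and 27.4 CPM. Both had the same low control c as arnt. CDH5 is also on the endothelium list above, whose tested markers were divided on this. FLT1, kdrl, VWF, STAB1 and flt4 were, like CDH5, lowest in control c among the controls. Tie1, FLI1, Erg and KDR were highest there. AHR and ncoa3, which are not on the endothelium list, were lowest in control c too. The 9 components nearest in pattern share libraries and scaling with the subunits, and none of them passed the test, with edgeR adjusted p of 0.11 to 0.53. Without both letter c libraries, Chd9, MYH11, LARP4 and PPIP5K2 passed, as did Epas1 comp19680_c0 (edgeR adjusted p = 0.026 to 0.047). That fit called 3816 of 25652 components. The 9 components were chosen for patterns like those of the subunits in these same libraries, so their passing together adds no support.

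Small RNA libraries of the same labels held several miRNAs known in mammals to repress HIF1A, and miR-210, which HIF raises in mammals. Their mature sequences, as deposited, are printed because the seed (bases 2 to 8, in capitals) sets which mRNAs a miRNA can pair with:
miR-17-5p: cAAAGTGCttacagtgcaggtag
miR-20a-5p: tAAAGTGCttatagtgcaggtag
miR-18a-5p: tAAGGTGCatttagtgcagata
miR-199a-5p: cCCAGTGTtcagactacctgttc
miR-210-5p: aGCCACTGactaacgcacactg
miR-210-3p: cTGTGCGTgtgacagcggct

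miR-17-5p and miR-20a-5p share the seed AAAGTGC. miR-18a-5p comes from the same cluster in vertebrates and has the seed AAGGTGC. miR-17-5p was at 3331, 2572 and 2657 CPM of the small RNA counts in control and 1848, 1719 and 2037 CPM in hypoxia. miR-20a-5p was at 2769, 1955 and 2600 CPM in control and 1389, 1158 and 1902 CPM in hypoxia. Both had every hypoxia library below every control library, with log2 fold changes of -0.61 and -0.72, and both had an edgeR adjusted p of 0.45. miR-18a-5p was at 109.9, 57.5 and 46.9 CPM in control and 29.6, 34.6 and 41.6 CPM in hypoxia, also without overlap (log2 fold change -1.02, SE 0.38, edgeR adjusted p = 0.45).

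miR-199a-5p, another repressor of HIF1A in mammals, was at 32267, 55269 and 77424 CPM in control and 110342, 77605 and 82553 CPM in hypoxia. Every hypoxia library was above every control library, but the margin between control c and hypoxia b was slight, and the log2 fold change of 0.71 (SE 0.32) had an edgeR adjusted p of 0.48. miR-155-5p and miR-429-3p had log2 fold changes of -0.11 and -0.07 with overlapping groups. No entry was matched for miR-20b or miR-107.

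Of the 8 miRNAs tested, 1 passed, miR-210-5p, against 0.42% of the 238 small RNA sequences tested, which is this 1 sequence; the replicate block called 3. miR-210-5p was at 64.5, 69.1 and 101 CPM in control and 440.3, 416 and 278 CPM in hypoxia. The groups were well apart, with a log2 fold change of 2.27 (SE 0.32, edgeR adjusted p = 0.025). The call was lost without control a (adjusted p = 0.16), control b (0.2), hypoxia a (0.1) or hypoxia b (0.18) in edgeR, with log2 fold changes of 2.13 to 2.22. The other arm, miR-210-3p, was at 92.7, 106 and 114 CPM in control and 254, 262 and 116 CPM in hypoxia, where hypoxia c lay just above control c (1.01, edgeR adjusted p = 0.45). The separation of miR-210-3p depends on the scaling, which had a factor of 1.402 for control a and 0.8535 to 1.006 for the others. Unscaled, control a held 586 of 4510770 counts, a larger share than the 712 of 6474476 in hypoxia c. Groups did not overlap in CPM for 6 of the 8, miR-210-3p among them, against 19.7% of all small RNA sequences tested. But the list was written from miRNAs known to bear on HIF or to answer to it, and 3 of the 6 share a cluster. No relation between a miRNA and a subunit was tested.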

How the data were processed

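Per the labels' protocols, mRNA reads were assembled without a genome, and per the submitters' processing notes the tools were RSEM 1.2.3 and DESeq (mRNA libraries) and Bowtie (small RNA libraries). The deposited tables hold the authors' estimated counts (expected counts) per component and per mature small RNA, and the authors' RPKM per component, with an effective length in bases. Aligner settings and filters are not given in the sources used here. Rounded counts were tested with edgeR 4.0.16 (quasi-likelihood test, TMM, filterByExpr, two-sided, Benjamini-Hochberg over all 25415 components or 238 small RNA sequences tested), after a check on simulated data. CPM use TMM-scaled totals. SE is the log2 fold change over the square root of F. DESeq2 1.42.0, limma 3.58.1 (voom), other scalings and filters, libraries left out, summed components and a replicate block were alternatives. Software was R 4.3.3 and Python 3.11.15 with scipy 1.17.1.

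The members and all lists were chosen with earlier results of these data known. A list gene is its most abundant component. Named are all members; per list up to 6 genes past the threshold with the smallest adjusted p, or the 2 with the smallest where fewer than 2 passed; the 3 components nearest in pattern to hif1a, Epas1 and arnt; and the listed miRNAs. List genes named with values but outside this rule, among them EGLN1, CUL2, RBX1, ARNTL, Clock, NPAS2, PER3, AHR, CREBBP, Ep300, kdrl, FLI1, Erg, c3, fabp10a, ADM and PDK1, were chosen after their values were seen. The same holds for STAB1, VWF, pdgfra, ACTA2, pdgfrb, COL3A1, COL1A2, ncoa3, P4htm, siah1, OS9 and GNB2L1. It also holds for COL1A1, DCN and hsp90ab1, and for KDR, flt4, Spi1 and lcp1, which are named without values.

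Deviations of same-letter libraries were positively correlated across components (in letter order, 0.15, 0.19 and 0.31 for mRNA and 0.13, 0.5 and 0.56 for small RNA). Letters a and b were not told apart by this. Hypoxia a correlated more with control b (0.18 for mRNA, 0.42 for small RNA) than with control a. Only in letter c did each library correlate positively with its same-letter partner alone. That the letters pair the libraries is therefore an assumption of the replicate block. The labels speak of 3 aquaria without tying a letter to one. Fish were pooled by 5, so p-values measure the spread between pools.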

Additional observations from a re-analysis of the deposited data

How the results depend on the processing

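With the replicate block, 2493 components changed in place of 1617, and 3 small RNA sequences in place of 1; no call on a HIF subunit changed (Epas1 comp19680_c0 adjusted p = 0.10 in edgeR). DESeq2 called 2456 components, and the fit without both libraries lettered c 3816. Leaving out 1 library gave 383 to 1855 components and 0 to 1 small RNA sequences; the lowest component counts were without control a (383), control b (518), hypoxia a (702) and hypoxia b (706). Without both letter c libraries, Epas1 comp19680_c0 passed (0.52), HIF1A comp19733_c0 turned to -0.16 and the log2 ratio difference of Epas1 to hif1a was 0.11. That ratio difference was -0.14 with components summed by name, and HIF1A comp19733_c0 was -0.27 when summed by annotation with EPAS1 comp19126_c0, whose larger counts set that sum. Leaving out 1 library also turned CEL (-0.02 to 2.53), hba (-0.92 to 0.04), miR-155-5p (-0.46 to 0.12) and miR-429-3p (-0.26 to 0.20). The other causes were not tested. The log2 fold changes of Epas1, EPAS1, hif1a and arnt, each by its own main component, kept their sign in all 14 alternatives run on them. With 3 pools a group the exact test on ratios cannot reach the threshold, and the arnt2 pieces were too sparsely read to test.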
